A study of Homo sapiens with 35 samples.

Results

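The genes described here are 31 direct transcriptional targets of p53, taken as a fixed list of symbols, and each was followed through the 30 bulk libraries analysed and the 3 single-cell libraries of H1 human embryonic stem cells (hESC) on their way to definitive endoderm or mesoderm. All 31 were found in the bulk table, where they make up 31 of 16103 genes, and all 31 had counts in each single-cell library. The rule that defines the set uses gene names and no measured value. In the GENCODE annotation on GRCh38, CDKN1A lies at chr6:36676460-36687339 and BTG2 at chr1:203305491-203309602, both on the plus strand. PMAIP1 lies at chr18:59899948-59904306 and DDB2 at chr11:47214465-47239240, on the plus strand, and PHLDA3 at chr1:201464383-201469237, on the minus strand.

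p53 is a DNA-binding transcription factor that is kept scarce by MDM2, a ubiquitin ligase which is itself a p53 target, and restrained by the related protein MDM4. DNA damage and other stresses stabilise it, and its targets then slow the cell cycle (CDKN1A, BTG2), tip the balance of the BCL2 family towards apoptosis (PMAIP1, BBC3, BAX), expose death receptors (FAS, TNFRSF10B), repair DNA and supply nucleotides (XPC, DDB2, POLH, RRM2B) and adjust metabolism (SESN1, TIGAR, FDXR). Human embryonic stem cells are known to hold abundant p53 and to die readily when it is activated, and p53 is known to interact with Activin and Wnt signalling in early mesendoderm. Several of these genes also answer to other regulators, so their transcripts are not a direct reading of p53.

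Cells were given the same protocol in all bulk groups except where an agent is named. CHIR is CHIR99021, an inhibitor of the kinase GSK3 that turns on Wnt signalling, used at 3 µM on day 1. AA is Activin A, a TGF-beta family ligand that drives endoderm, used at 100 ng/ml. BRD and JNJ are small molecules known here only by those names, and their doses are not given in the labels. At 6 h the groups were AA+CHIR, BRD+CHIR, JNJ+CHIR, CHIR, BRD alone and no treatment. At 24 h they were AA+CHIR, BRD+CHIR, JNJ+CHIR, CHIR and BRD alone, all unsorted, as were the 6 h cells. At 72 h they were sorted definitive endoderm cells made with BRD, with JNJ, with BRD plus "LoAA" (not explained in the labels) or with AA, each after CHIR on day 1. Each of these 15 groups held 2 libraries, and the labels do not say whether these came from separate cultures, so p-values measure the spread between libraries, which may be technical. The untreated 24 h pair was not analysed here. The single-cell libraries, 1 each, were primitive streak cells at 36 h and endoderm cells at 72 h, both made with AA and CHIR followed by AA, and mesoderm cells at 72 h made with a commercial mesoderm induction medium. All cells came from a single line, and the single-cell suspensions had passed a cell sorter.

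The bulk titles carry a number that splits the libraries into series 33 (6 h, 10 libraries), series 38 (24 h, 8 libraries) and series 46 (all 72 h libraries and BRD alone at both times, 12 libraries). Series 46 stood apart: transcripts of the mitochondrial pseudogene family MTRNR2L took 7.58% to 13.9% of its counts, against 0.247% to 1.1% in the others. RPL11, a ribosomal protein gene, had 131.8 and 114.1 CPM (counts scaled to a common library total) in BRD alone at 6 h, against 919.6 and 1024.6 CPM in untreated cells. BRD alone against other groups of its time, and 24 h or 72 h against the earlier time in other groups, therefore span 2 series. In these comparisons series and condition cannot be told apart. BRD alone at 24 h against 6 h and all comparisons within 72 h stay inside series 46. Library totals ran from 4.57 M to 49.5 M counts (M, mega).

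Promoters are shown for the genes with the smallest p-values in the comparison that called most of the 31, BRD alone against untreated cells at 6 h, and for PLK2, which was added after its values were seen because it was the only one of the 31 called when AA was added to CHIR. The 250 bases before each start come from RefSeq on GRCh38.p14 and run 5′ to 3′ on the gene's strand. Capitals mark a match to a p53 decamer, an arm of the p53 response element, searched on both strands. A match is a description of the letters and not a binding site.
AEN, which encodes an apoptosis-enhancing nuclease, chr15:88621090-88621339, plus strand: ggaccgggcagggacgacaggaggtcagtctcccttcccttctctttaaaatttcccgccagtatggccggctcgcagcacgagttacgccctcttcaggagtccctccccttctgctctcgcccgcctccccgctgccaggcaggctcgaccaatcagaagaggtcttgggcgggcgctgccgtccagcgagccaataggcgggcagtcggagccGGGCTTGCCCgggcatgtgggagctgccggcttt
CDKN1A, which encodes the cell cycle inhibitor p21, chr6:36678464-36678713, plus strand: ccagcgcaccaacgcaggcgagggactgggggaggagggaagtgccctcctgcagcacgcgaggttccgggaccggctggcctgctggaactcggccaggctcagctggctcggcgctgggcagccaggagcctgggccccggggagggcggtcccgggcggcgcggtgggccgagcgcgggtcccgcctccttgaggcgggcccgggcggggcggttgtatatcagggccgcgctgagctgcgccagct
PMAIP1, which encodes the BCL2-family killer protein NOXA, chr18:59899746-59899995, plus strand: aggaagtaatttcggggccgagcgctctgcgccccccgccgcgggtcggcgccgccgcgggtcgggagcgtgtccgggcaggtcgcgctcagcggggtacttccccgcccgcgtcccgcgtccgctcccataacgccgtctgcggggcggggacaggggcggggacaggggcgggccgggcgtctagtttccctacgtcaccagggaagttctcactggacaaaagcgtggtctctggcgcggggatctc
PLK2, which encodes a polo-like kinase, chr5:58460087-58460336, minus strand: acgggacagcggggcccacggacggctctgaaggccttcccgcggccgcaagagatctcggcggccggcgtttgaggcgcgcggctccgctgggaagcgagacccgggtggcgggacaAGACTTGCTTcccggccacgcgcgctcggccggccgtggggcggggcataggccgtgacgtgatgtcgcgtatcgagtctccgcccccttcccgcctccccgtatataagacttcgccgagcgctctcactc

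The AEN match begins 34 bases before its start, and the PLK2 match 132 bases before its start. The windows of CDKN1A and PMAIP1 held no match. RefSeq entries were found for 25 of the 31 genes, with 37 listed starts, of which 5 (13.5%) held the decamer, in AEN, PLK2, FAS, SESN1 and FDXR. Among all 34943 promoters of this length, 1950 (5.58%) held it. The Wnt-factor motif CTTTGAT, or its reverse complement ATCAAAG, was in 1 of the 37 (2.7%), at EDA2R, against 2.27% of all promoters. The 37 starts of the 25 matched genes had a median G and C content of 65.2%, against 58% for all promoters.

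Levels are given as CPM scaled with TMM factors, without a length correction, so they compare libraries and not genes. MDM2 had the narrowest spread of the 3 genes followed in every comparison, between 184 and 315 CPM over all 30 libraries, and MDM4 lay between 76.0 and 173 CPM. CDKN1A covered a wider span, with a lowest library of 0.453 CPM, a median of 14.0 CPM and a highest of 23.4 CPM. Its libraries were under 4 CPM at 72 h and with BRD alone at 6 h, 6.12 and 7.25 CPM with BRD alone at 24 h, and 10.1 CPM or more elsewhere. PMAIP1 ran between 71.2 and 1336 CPM, with both of the highest libraries in BRD alone at 24 h. FAS was listed at 0 in 6 libraries and GDF15 in 2, and the other 29 genes were detected in all 30.

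**Figure D1:**
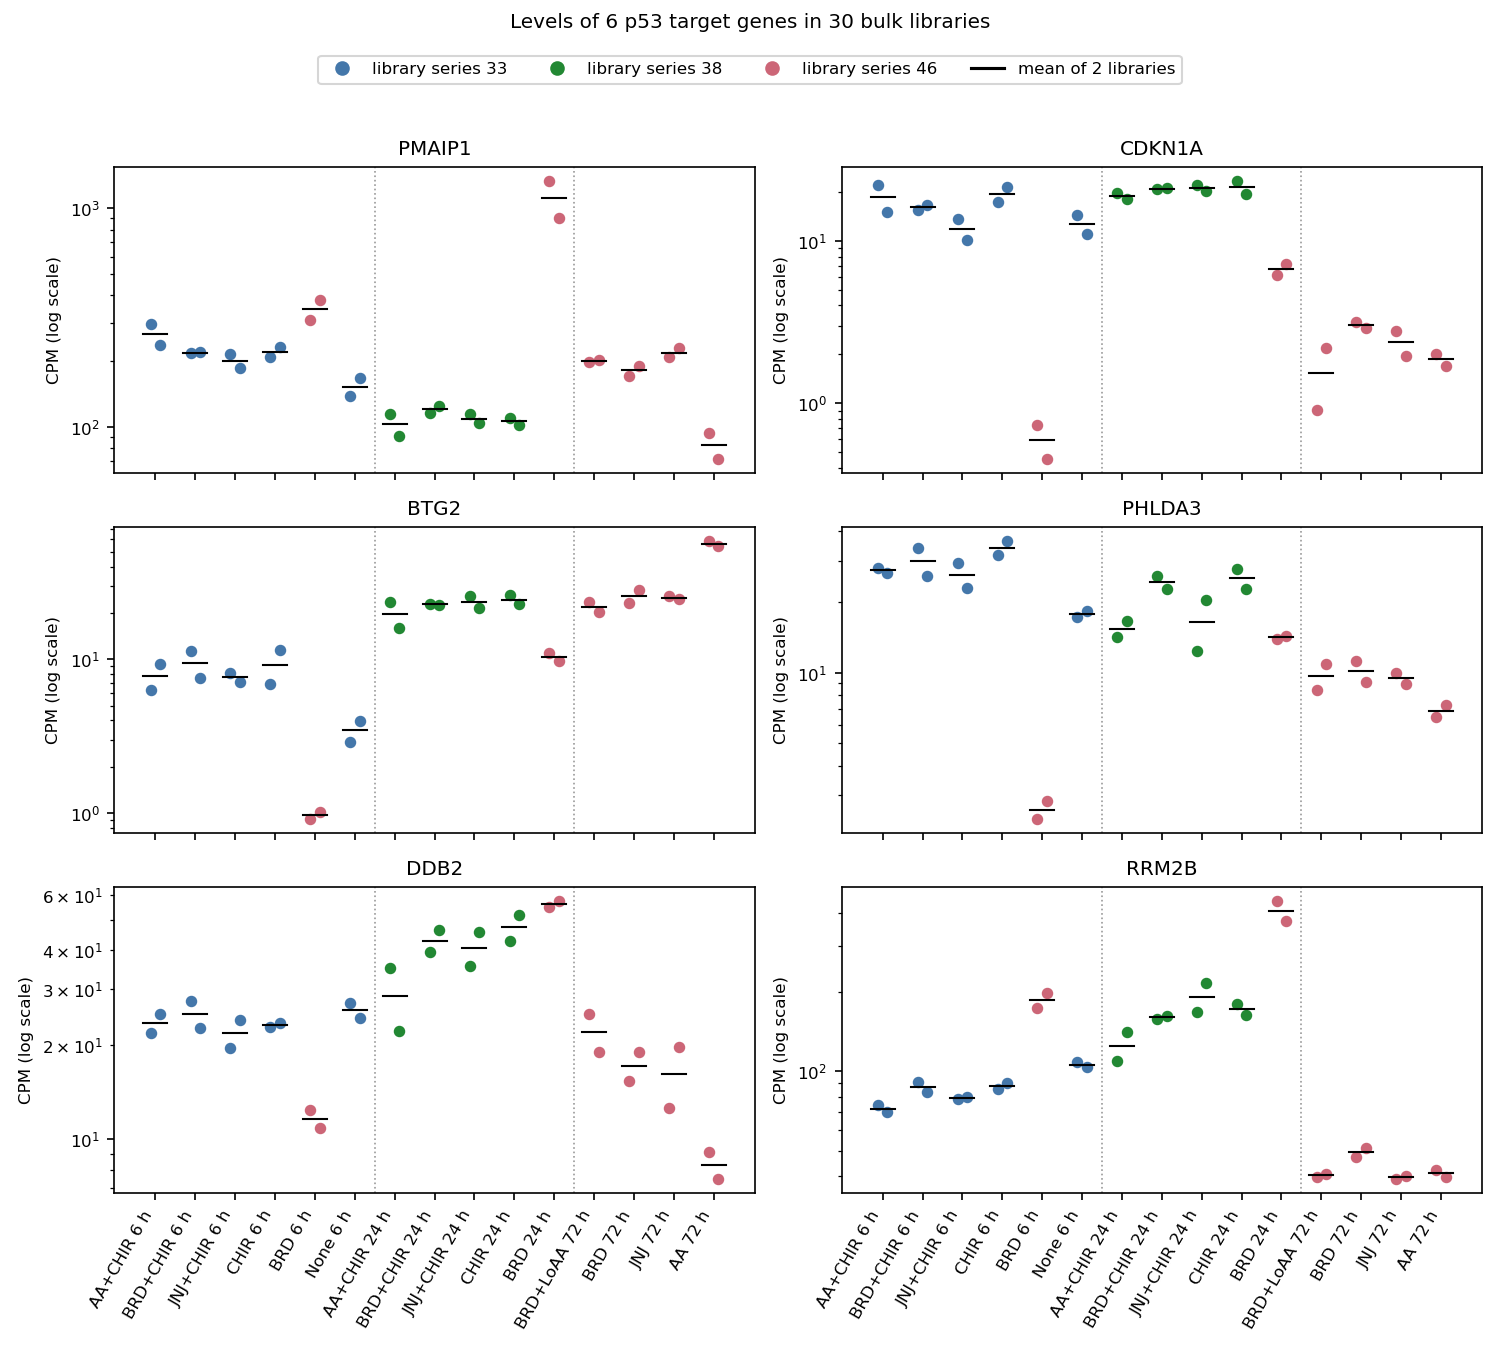
CPM (log scale) of PMAIP1, CDKN1A, BTG2, PHLDA3, DDB2 and RRM2B in the 30 bulk libraries, 2 points per group with a bar at their mean, coloured by library series and ordered by time. PMAIP1 and RRM2B peaked in BRD alone at 24 h (1122 and 406 CPM on average), and BTG2 peaked in AA cells at 72 h (56.4 CPM).

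The first question was what the Wnt-activating agent did on its own. After 6 h of CHIR, PHLDA3, BTG2 and PMAIP1 were higher than in untreated cells, and no gene of the 31 was called lower. PHLDA3, an inhibitor of the survival kinase AKT, had 31.5 and 36.3 CPM with CHIR against 17.3 and 18.2 CPM in untreated cells (log2 change 0.93, SE 0.181, adjusted p = 0.00626). BTG2, an antiproliferative gene, had 6.94 and 11.5 CPM with CHIR against 2.90 and 3.98 CPM in untreated cells (log2 change 1.42, SE 0.363, adjusted p = 0.04). PMAIP1 had 208 and 233 CPM with CHIR against 138 and 167 CPM in untreated cells (log2 change 0.52, SE 0.123, adjusted p = 0.0238). In each of the 3 genes both CHIR libraries lay above both untreated ones. Adjusted p-values are from edgeR's quasi-likelihood test with Benjamini-Hochberg adjustment over all genes tested, and calls are at a false discovery rate of 0.05.

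The 3 genes called higher compare with 1.69% of the 14874 genes tested, and the 0 called lower with 1.28%. At an unadjusted p under 0.05 there were 16 of the 31. The share of all genes at that looser cut-off is not given here or below. Such counts are therefore not set against a background and are not read as a result. The log2 change was above 0 for 24 of 31, with a median of 0.298, whereas 49.5% of all genes were above 0. By role, all 6 death receptor and BCL2-family genes, 7 of 8 cell cycle and feedback genes and all 4 metabolic or secreted genes were above 0, as were 5 of 9 other survival and death genes and 2 of 4 repair genes. CDKN1A had 17.3 and 21.5 CPM with CHIR against 14.3 and 11.0 CPM in untreated cells and did not pass (log2 change 0.61, SE 0.243, adjusted p = 0.266). MDM2 had 258 and 315 CPM with CHIR against 235 and 230.1 CPM in untreated cells and did not pass either (log2 change 0.30, SE 0.0956, adjusted p = 0.127). MDM4 had 76.2 and 93.8 CPM with CHIR against 79.1 and 80.8 CPM in untreated cells (adjusted p = 0.834). The count of 3 became 0 without the second CHIR library or without the first untreated library.

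Few further p53 pathway genes were called with CHIR at 6 h. Of 38 other p53 targets tested, KITLG and SESN2 rose (log2 changes 1.20 and 0.54) and KLHDC7A fell by 1.06. Of 24 regulators of p53, TP53BP1 alone was called and fell by 0.39. Of 20 cell cycle genes that p53 is known to lower through the DREAM complex, CDC20 alone was called and fell by 0.42, while 1 of the 20 had a change above 0 and the median was -0.122. Immediate early genes, which many stimuli induce and which regulate some of the same promoters, were called higher in 4 of 16, among them EGR1 (log2 change 0.93) and ATF3 (0.65). Their part in the 3 calls was not tested.

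Setting all 8 libraries that held CHIR at 6 h against the 2 untreated ones called 8 of the 31 higher and 1 lower, where 2.88% and 2.65% of all genes were called. The largest of these changes were in BTG2 (1.30 on the log2 scale), PHLDA3 (0.71), TIGAR (0.61) and PMAIP1 (0.56). TIGAR, a phosphatase that slows glycolysis, had 25.5 CPM in its lowest, 32.6 CPM in its median and 37.2 CPM in its highest CHIR-holding library, against 19.5 and 22.5 CPM in untreated cells. SESN1, an antioxidant regulator of mTOR signalling, rose by 0.48, MDM2 by 0.29, CCNG1 by 0.25 and PLK2 by 0.45. RRM2B, a subunit of ribonucleotide reductase, fell by 0.38 (adjusted p = 0.00361, edgeR). It ran between 70.0 and 91.2 CPM in the 8 libraries, against 108 and 104 CPM in untreated cells, with no overlap. CDKN1A did not pass (log2 change 0.35, SE 0.198, adjusted p = 0.383). Without the first untreated library no gene of the 31 was called, and without the second 2 genes were.

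When AA was added to CHIR, PLK2 was the only gene of the 31 called at 6 h. PLK2, a polo-like kinase that acts in the cell cycle, had 70.1 and 64.7 CPM with AA+CHIR against 33.5 and 38.003 CPM with CHIR (log2 change 0.91, SE 0.148, adjusted p = 0.00253, edgeR). Both AA libraries were far above both others. That is 1 of 31 called higher and 0 lower, against 0.76% and 0.733% of all genes, and 5 of the 31 had an unadjusted p under 0.05. Without the first CHIR library no gene was called, and without the second AA+CHIR library 2 were. The median change over the 31 was 0.00743. CDKN1A had 22.1 and 15.1 CPM with AA+CHIR against 17.3 and 21.5 CPM with CHIR (log2 change -0.07, 95% interval -0.65 to 0.52). The interval for MDM2 ran -0.23 to 0.24. MDM4 was not called (log2 change 0.19).

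At 24 h PLK2 had 24.0 and 29.5 CPM with AA+CHIR against 9.78 and 16.1 CPM with CHIR, again without overlap, but did not pass (log2 change 1.05, SE 0.278, adjusted p = 0.056). None of the 31 was called by edgeR, where 2.86% of 15586 genes were, and 8 had an unadjusted p under 0.05. DESeq2 and limma-voom each called 1, and 1 edgeR fit over all libraries called 4. Of the 8 with an unadjusted p under 0.05, PLK2 was higher and the other 7 were lower with AA. DDB2, a DNA damage sensor, had 35.1 and 22.1 CPM with AA+CHIR against 42.9 and 51.9 CPM with CHIR (log2 change -0.73, SE 0.226, adjusted p = 0.119). TRIAP1, an inhibitor of apoptosis, had 20.9 and 17.8 CPM with AA+CHIR against 39.9 and 26.7 CPM with CHIR (log2 change -0.78, SE 0.242, adjusted p = 0.118). CDKN1A, MDM2 and MDM4 had differences of -0.19, -0.29 and -0.29 on the log2 scale and were not called. Libraries of series 38 agreed less well than others, with 112 to 298 genes at 0 in one replicate and at 50 counts or more in the other, against 9 to 42 elsewhere. In simulated data the 24 h fit recovered 10% of 2-fold and 79% of 4-fold changes. The simulation used less spread between libraries than the real fit estimated (coefficient of variation 0.406), so recovery in the real data may be lower. No gene of the 31 passed a test of the difference between the 24 h and 6 h effects of AA (1.9% of 15717 genes did, and 5 of the 31 had an unadjusted p under 0.05).

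BRD and JNJ, each added to CHIR, called none of the 31 at 6 h or 24 h by edgeR, DESeq2 or limma-voom. For BRD at 6 h and at 24 h 0% of all genes were called, and 0 and 1 of the 31 had an unadjusted p under 0.05. For JNJ 0.0202% of all genes were called at 6 h and 0.154% at 24 h, and 2 and 6 of the 31 had an unadjusted p under 0.05. CDKN1A had 13.6 and 10.1 CPM with JNJ+CHIR at 6 h against 17.3 and 21.5 CPM with CHIR, a log2 change of -0.71 (95% interval -1.30 to -0.11, unadjusted p = 0.00954, edgeR adjusted p = 0.985). With BRD+CHIR it had 15.5 and 16.6 CPM, and its change against CHIR had a 95% interval of -0.85 to 0.32. MDM2 had 303 and 271 CPM with BRD+CHIR and 288 and 268 CPM with JNJ+CHIR, against 258 and 315 CPM with CHIR. The ranges overlapped in both cases.

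At 24 h CDKN1A had 20.9 and 21.1 CPM with BRD+CHIR and 22.2 and 20.2 CPM with JNJ+CHIR, against 23.4 and 19.6 CPM with CHIR. MDM2 had 236 and 224 CPM with BRD+CHIR and 226 and 224 CPM with JNJ+CHIR, against 244 and 239 CPM with CHIR. Neither gene passed. MDM4 was not called either (log2 changes -0.05 with BRD+CHIR and -0.10 with JNJ+CHIR at 24 h, and 0.08 and -0.03 at 6 h). BRD+CHIR against JNJ+CHIR called 0 of the 31 at either time, with 0.0202% and 0.18% of all genes called and 0 of the 31 at an unadjusted p under 0.05 at each time. For CDKN1A that direct comparison gave a log2 change of 0.44 at 6 h (95% interval -0.15 to 1.04) and of -0.02 at 24 h (95% interval -0.69 to 0.66). These intervals do not show that the compounds act alike. The differences of the BRD effect and of the JNJ effect between times called none of the 31 either, with 0.00636% of all genes called in each and 1 and 0 of the 31 at an unadjusted p under 0.05.

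**Figure D2:**
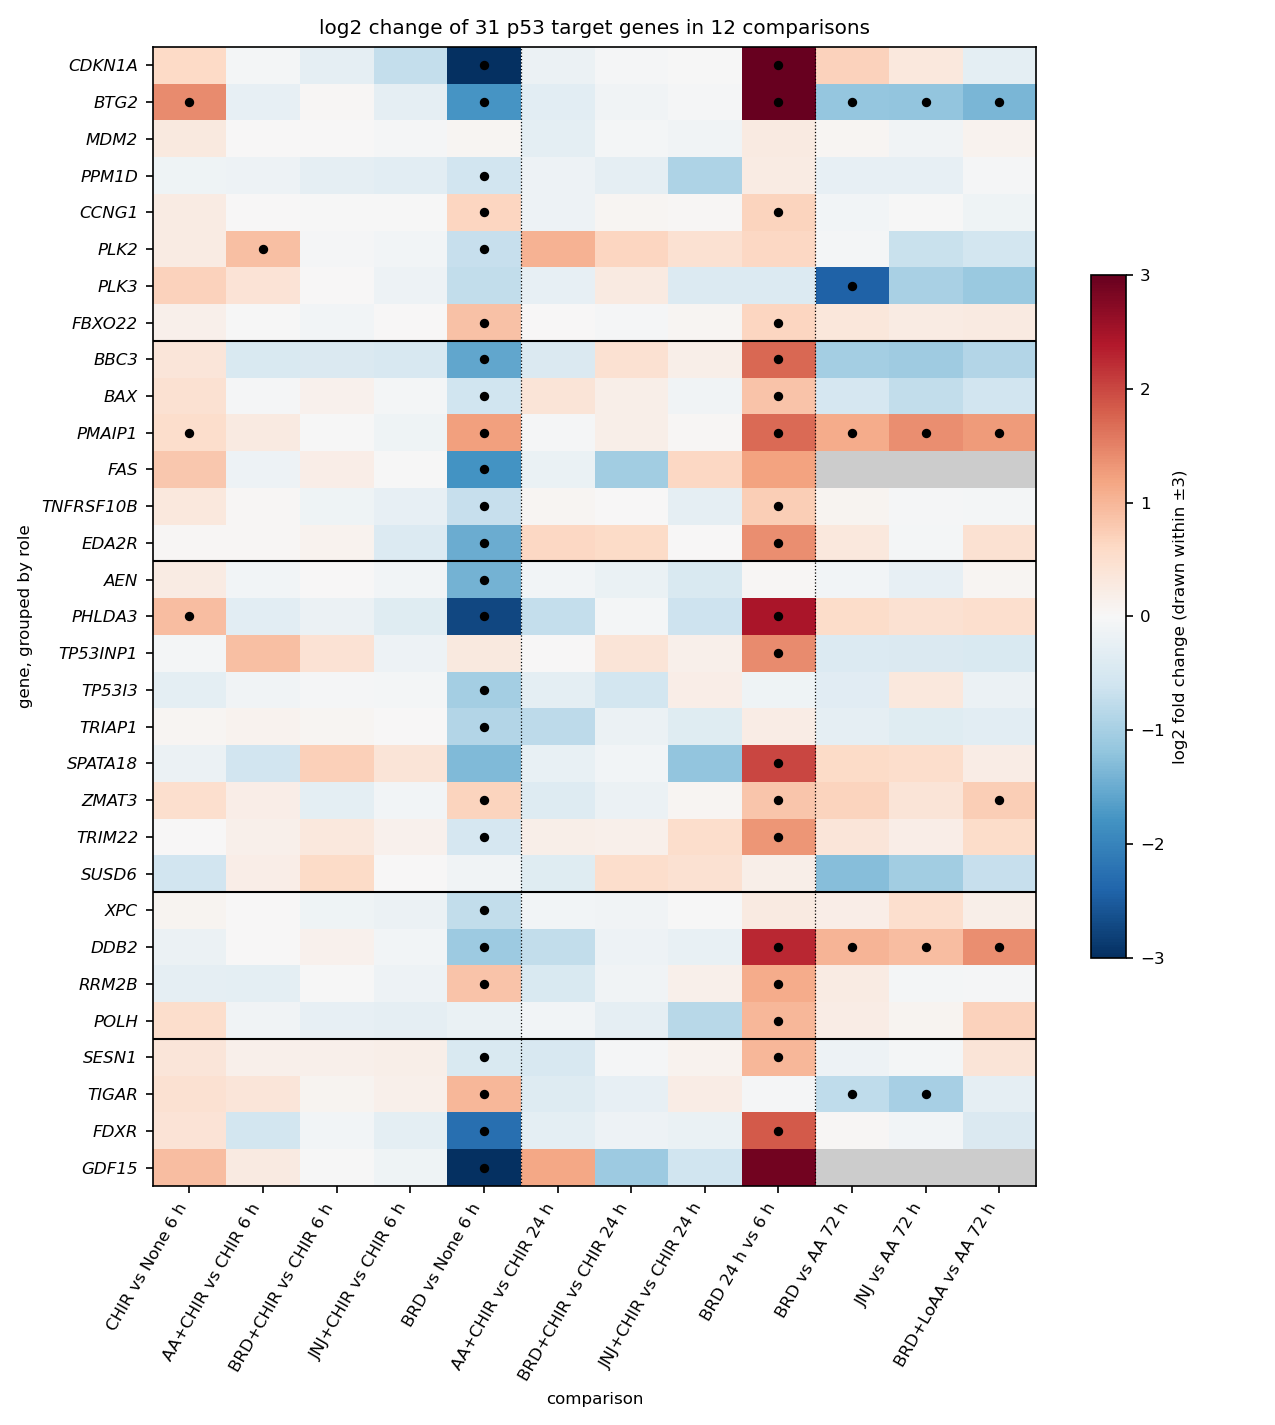
Colour map of the log2 change (the first-named group over the second, drawn within ±3) of the 31 genes, in rows grouped by role, in 12 comparisons, in columns, with a dot where the change passed a false discovery rate of 0.05 and grey where the gene was not tested. The BRD and JNJ columns with CHIR carry no dots, whereas the column of BRD alone at 24 h against 6 h carries 19.

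Under BRD alone, without CHIR, many p53 targets were higher at 24 h than at 6 h, in a comparison that stays within a library series. That series held no untreated cells, so BRD and time in culture cannot be told apart. A rise here is relative to BRD alone at 6 h only. At 24 h some called genes, such as PHLDA3, lay below untreated cells of 6 h, and others, such as PMAIP1, lay above. Those untreated cells belong to another series. Of the 31 genes 19 were called higher and none lower, where 4.15% of 16098 genes were called higher and 7.54% lower. The log2 change was above 0 for 28 of the 31, with a median of 0.99, whereas 53% of all genes were above 0, with a median of 0.0368. Genes of each role were called: 4 of 8 cell cycle and feedback genes, 5 of 6 death receptor and BCL2-family genes, 5 of 9 other survival and death genes, 3 of 4 repair genes and 2 of 4 metabolic or secreted genes.

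Among the BCL2 family and death receptors, PMAIP1 had 1336 and 907 CPM at 24 h against 309 and 382 CPM at 6 h (log2 change 1.70, SE 0.161, adjusted p = 5.49e-08, edgeR). TNFRSF10B, a receptor for the death ligand TRAIL, had 62.0 and 65.9 CPM at 24 h against 39.3 and 37.9 CPM at 6 h (log2 change 0.73, SE 0.137, adjusted p = 0.000539). BBC3, BAX and EDA2R rose by 1.72, 0.87 and 1.39 on the log2 scale, but leaving out 1 library lost the call of EDA2R in 4 of 4 fits, of BAX in 3 and of BBC3 in 2. FAS was the only one of these 6 not called. The 24 h libraries of PMAIP1 lay above every other bulk library of the study.

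Among the cell cycle genes, BTG2 had 11.0 and 9.69 CPM at 24 h against 0.913 and 1.02 CPM at 6 h (log2 change 3.41, SE 0.354, adjusted p = 2.15e-07). CDKN1A had 6.12 and 7.25 CPM at 24 h against 0.730 and 0.453 CPM at 6 h (log2 change 3.47, SE 0.397, adjusted p = 9.42e-07). Its 24 h libraries lay below every CHIR-treated library of 6 h and 24 h. CCNG1, which encodes cyclin G1, had 487 and 467 CPM at 24 h against 289 and 310.1 CPM at 6 h (log2 change 0.67, SE 0.106, adjusted p = 7.5e-05), and FBXO22, a ubiquitin ligase subunit, rose by 0.65, a call lost in 3 of 4 such fits. MDM2, with 302 and 267 CPM at 24 h against 226 and 246 CPM at 6 h, did not pass (log2 change 0.27, SE 0.116, adjusted p = 0.157).

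Among the repair and nucleotide genes, DDB2 had 54.8 and 57.2 CPM at 24 h against 12.4 and 10.9 CPM at 6 h (log2 change 2.26, SE 0.242, adjusted p = 3.37e-07). RRM2B had 442 and 371 CPM at 24 h against 173 and 199 CPM at 6 h (log2 change 1.12, SE 0.126, adjusted p = 7e-07). POLH, a DNA polymerase that copies past lesions, rose by 1.00, a call lost in 4 of 4 such fits, and XPC did not pass (adjusted p = 0.494). Among the survival genes, PHLDA3 had 13.9 and 14.3 CPM at 24 h against 2.37 and 2.83 CPM at 6 h (log2 change 2.44, SE 0.28, adjusted p = 9.45e-07). TRIM22, an interferon-responsive ubiquitin ligase, had 62.8 and 69.9 CPM at 24 h against 23.9 and 29.3 CPM at 6 h (log2 change 1.32). TP53INP1, a stress protein that promotes p53 activity, had 30.8 and 32.5 CPM at 24 h against 12.1 and 11.4 CPM at 6 h (log2 change 1.43). ZMAT3, an RNA-binding protein, rose by 0.83 and SPATA18 by 2.01, calls lost in 3 and in 4 of 4 such fits. AEN had 43.8 and 50.2 CPM at 24 h against 46.011 and 47.1 CPM at 6 h, with overlap, and was not called (adjusted p = 0.961).

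Of the metabolic genes, FDXR, a mitochondrial reductase, had 7.96 and 9.56 CPM at 24 h against 2.56 and 2.38 CPM at 6 h (log2 change 1.84), and SESN1 had 39.4 and 35.6 CPM at 24 h against 17.8 and 19.8 CPM at 6 h (log2 change 0.99). MDM4 had 165 and 158 CPM at 24 h against 125 and 128 CPM at 6 h and was not called (adjusted p = 0.243). In every called gene above, the 24 h libraries lay beyond both 6 h libraries. Without the second 6 h library 12 of the 19 were called, all of them higher.

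Beyond the 31, p53 pathway genes were called in both directions under BRD alone. Of 38 other p53 targets 5 rose, among them IER5 (log2 change 1.17), APAF1 (0.68) and PIDD1 (1.33), and 2 fell, among them PERP, which fell by 0.71. Of 25 regulators of p53, ATM, a kinase that activates it, rose (0.47), while USP7 and TP53BP1 fell by 0.53 and by 0.41. Of 20 genes lowered by p53 through DREAM, 2 rose and 3 fell. Markers of pluripotency moved over the same time, with NANOG lower (-1.20) and SOX2 higher (0.72). Of 16 immediate early genes 4 rose and 3 fell, and their summed level was 308 and 357 CPM at 24 h against 385 and 391 CPM at 6 h. The summed level of 8 definitive endoderm markers was 51.5 and 57.0 CPM at 24 h against 42.5 and 43.1 CPM at 6 h. The 24 h libraries differed in depth, at 6.75 M and 49.5 M counts. What part these play in the changes was not tested.

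**Figure D3:**
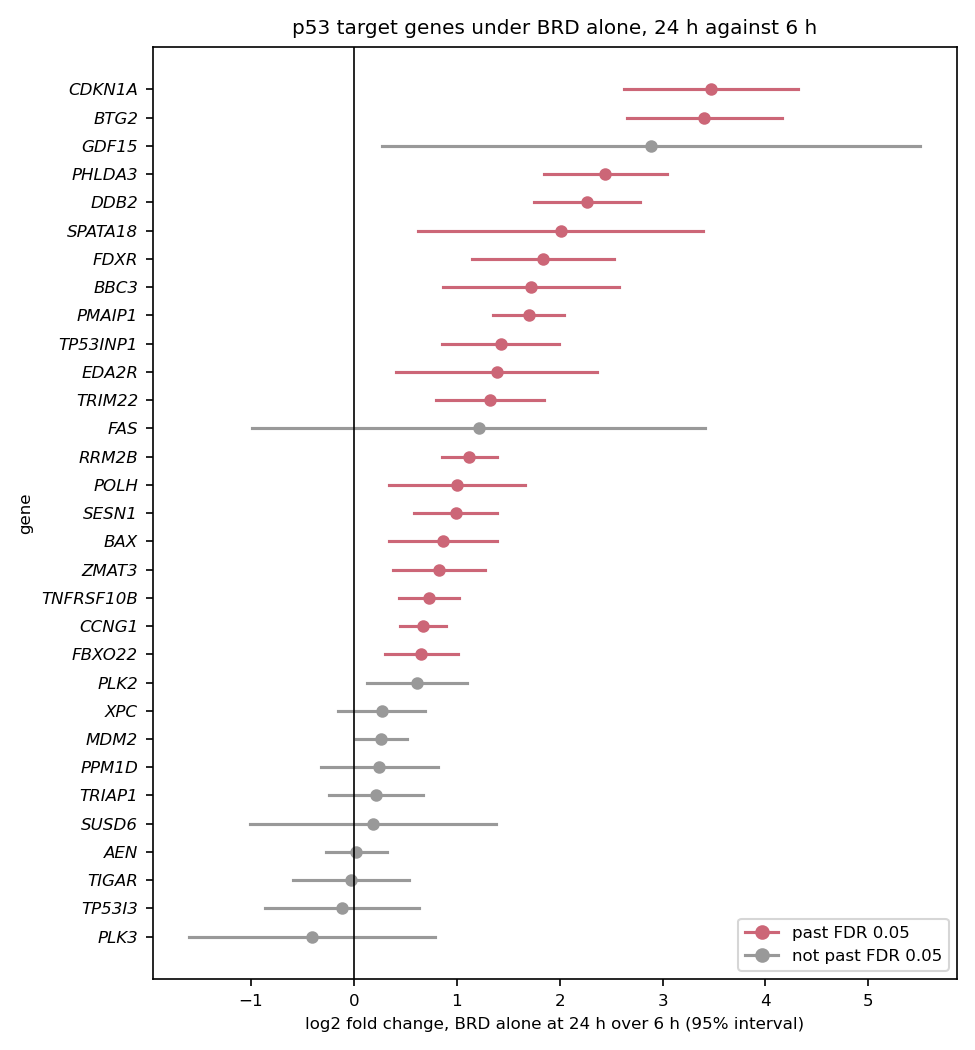
Log2 change of the 31 genes under BRD alone, 24 h over 6 h, with 95% intervals, sorted by size and red where it passed a false discovery rate of 0.05. The 19 called genes all lie to the right of 0, between 0.65 and 3.47. GDF15 rests on 1 count in each 6 h library.

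Set against untreated cells at 6 h, BRD alone had a mixed pattern, in which series and treatment cannot be told apart and 54.1% of all genes were called. Of the 31, 6 were called higher and 19 lower, against 26.5% and 27.6% of all genes. CDKN1A had 0.730 and 0.453 CPM with BRD against 14.3 and 11.0 CPM in untreated cells (log2 change -4.32). AEN had 46.011 and 47.1 CPM with BRD against 126 and 129 CPM in untreated cells (log2 change -1.41). PHLDA3 had 2.37 and 2.83 CPM with BRD against 17.3 and 18.2 CPM in untreated cells (log2 change -2.73). All 3 were lower with BRD in both libraries. GDF15, a stress-induced secreted factor, had 1 count in each BRD library and 8.45 and 5.56 CPM in untreated cells.

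Genes called higher with BRD alone included PMAIP1, with 309 and 382 CPM with BRD against 138 and 167 CPM in untreated cells (log2 change 1.22). RRM2B had 173 and 199 CPM with BRD against 108 and 104 CPM in untreated cells (0.86), and CCNG1 had 289 and 310.1 CPM with BRD against 200.4 and 196 CPM in untreated cells (0.64). FBXO22 had 77.1 and 79.9 CPM with BRD against 47.4 and 40.4 CPM in untreated cells (0.88). The other genes among the 12 with the smallest p-values were lower. FDXR had 2.56 and 2.38 CPM with BRD against 12.7 and 11.7 CPM in untreated cells, and DDB2 had 12.4 and 10.9 CPM with BRD against 27.1 and 24.4 CPM in untreated cells. TNFRSF10B had 39.3 and 37.9 CPM with BRD against 67.0 and 62.5 CPM in untreated cells, and XPC had 28.7 and 25.9 CPM with BRD against 47.5 and 46.025 CPM in untreated cells. Adjusted p-values of the 12 ran from 3.36e-09 to 0.000118 (edgeR). MDM4 was called higher (0.71), while MDM2 had 226 and 246 CPM with BRD against 235 and 230.1 CPM in untreated cells and was not called. RPL11, which is not in the set, changed by -2.94 in this comparison.

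BRD+CHIR against BRD alone at 24 h spans series 38 and 46, so series and treatment cannot be told apart here either. In this comparison 35.5% of all genes were called. Here 6 of the 31 were higher and 5 lower, against 19.8% and 15.7% of all genes. PMAIP1 was lower in BRD+CHIR, with 116 and 125 CPM in BRD+CHIR against 1336 and 907 CPM in BRD alone (-3.22 on the log2 scale). RRM2B had 158 and 163 CPM in BRD+CHIR against 442 and 371 CPM in BRD alone (-1.34), and CCNG1 had 290.1 and 283 CPM in BRD+CHIR against 487 and 467 CPM in BRD alone (-0.73). FBXO22 had 93.1 and 79.5 CPM in BRD+CHIR against 127 and 120.3 CPM in BRD alone, and MDM2 had 236 and 224 CPM in BRD+CHIR against 302 and 267 CPM in BRD alone. These 5 were the ones called lower. CDKN1A was called higher, with 20.9 and 21.1 CPM in BRD+CHIR against 6.12 and 7.25 CPM in BRD alone (1.63). BAX had 40.7 and 42.9 CPM in BRD+CHIR against 12.9 and 15.8 CPM in BRD alone (1.52). FDXR had 26.1 and 32.2 CPM in BRD+CHIR against 7.96 and 9.56 CPM in BRD alone (1.71). XPC, BTG2 and PHLDA3 were also higher in BRD+CHIR, by 0.96, 1.15 and 0.78. Leaving out 1 library lost the call of PHLDA3 in 4 of 4 fits, of MDM2 in 3, and of BTG2 and FBXO22 in 1 each. MDM4 was called lower in BRD+CHIR (-0.41). RPL11 changed by 2.05.

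At 72 h the sorted cells of each compound were set against those made with AA. PMAIP1 was higher and BTG2 lower with each compound. PMAIP1 had 172 and 191 CPM with BRD, 208 and 229.6 CPM with JNJ and 199 and 203 CPM with BRD+LoAA, against 93.3 and 71.2 CPM with AA. The log2 changes were 1.12, 1.39 and 1.28, with edgeR adjusted p-values of 0.000123, 2.51e-05 and 4.69e-05. BTG2 had 23.1 and 28.0 CPM with BRD, 25.8 and 24.5 CPM with JNJ and 23.4 and 20.2 CPM with BRD+LoAA, against 58.5 and 54.3 CPM with AA. Its log2 changes were -1.15, -1.18 and -1.37. No compound library overlapped an AA library in either gene, and both calls held without any single library. The comparisons share the AA libraries.

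DDB2 was also higher with each compound, with 15.4 and 19.0 CPM with BRD, 12.6 and 19.7 CPM with JNJ and 25.1 and 18.9 CPM with BRD+LoAA, against 9.15 and 7.46 CPM with AA. Its adjusted p-values were 0.0219, 0.0386 and 0.00419. For BRD and for JNJ this call was lost when either AA library or the second compound library was left out. TIGAR had 19.9 and 20.0 CPM with BRD and 18.5 and 15.5 CPM with JNJ, against 27.7 and 39.6 CPM with AA (log2 changes -0.76 and -0.9956). PLK3, a stress-responsive polo-like kinase, had 1.90 and 0.731 CPM with BRD against 6.46 and 7.46 CPM with AA (log2 change -2.43, SE 0.663, adjusted p = 0.0199). ZMAT3 had 43.0 and 60.9 CPM with BRD+LoAA against 29.5 and 32.4 CPM with AA (log2 change 0.75, SE 0.244, adjusted p = 0.0482). The calls of PLK3, TIGAR and ZMAT3 were all lost without the second AA library, and each also without at least 1 other library. With 1 library left out, log2 changes ran from -3.215 to -1.861 for PLK3 and from 0.4888 to 0.9852 for ZMAT3. For TIGAR they ran from -0.9827 to -0.4479 with BRD and from -1.226 to -0.6913 with JNJ.

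In all, 2 genes were higher and 3 lower with BRD, 2 and 2 with JNJ, and 3 and 1 with BRD+LoAA, of 29 that passed the filter on low counts. The shares of all 13889 genes called higher and lower were 9.71% and 11.6% with BRD, 8.57% and 9.92% with JNJ, and 8.86% and 10.5% with BRD+LoAA. The shares called among the 31 thus lay near or below those of all genes. The medians of the 29 were 0.0241, -0.0606 and -0.0343, against 0.00703, 0.00599 and 0.0188 over all genes. Without the second AA library the BRD count was 2 instead of 5 and the JNJ count 2 instead of 4. The BRD count was 3 without the first AA or the second BRD library, and the JNJ count 2 without the second JNJ library. FAS and GDF15 did not pass the filter: FAS was listed at 0 in both AA libraries, and no 72 h library held more than 1.74 CPM of GDF15. CDKN1A had 3.17 and 2.92 CPM with BRD, 2.79 and 1.95 CPM with JNJ and 0.902 and 2.18 CPM with BRD+LoAA, against 2.02 and 1.70 CPM with AA, and was not called in any (95% intervals -1.20 to 2.57, -1.60 to 2.23 and -2.29 to 1.70). MDM2 had 249.6 and 248 CPM with BRD, 231 and 214 CPM with JNJ and 235 and 275 CPM with BRD+LoAA, against 212 and 265 CPM with AA, and was not called. MDM4 was not called with any, with log2 changes of 0.25 for BRD, 0.13 for JNJ and 0.16 for BRD+LoAA.

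BRD and JNJ did not separate at 72 h on any of the 31, as on any of the 13889 genes (0% called by edgeR, 3 of the 31 at an unadjusted p under 0.05, 0 of the 31 by DESeq2 or limma-voom). PMAIP1 differed by -0.27 between BRD and JNJ (95% interval -0.66 to 0.12), and BTG2 by 0.03 (95% interval -0.46 to 0.52). Both doses are unknown here, so this compares the groups as made.

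The cells also differed in identity markers at 72 h. The summed level of 8 endoderm markers was 1239 to 1391 CPM with BRD, 1412 to 1417 CPM with JNJ and 1127 to 1152 CPM with BRD+LoAA, against 5020 to 5637 CPM with AA, and all 8 were detected in each group. CER1, a secreted antagonist made by early endoderm, averaged 70.5 CPM with BRD, 97.6 CPM with JNJ and 67.8 CPM with BRD+LoAA, against 4059 CPM with AA. Nearly all of the difference in the summed level came from CER1, so the sum does not show that the other endoderm markers were lower. The pluripotency factor SOX2 was higher with BRD, JNJ and BRD+LoAA (3.61, 3.53 and 3.99), as was POU5F1 (1.01, 1.35 and 1.22). The summed level of 8 pluripotency markers differed less, at 1954 to 2220 CPM with BRD and 1953 to 2301 CPM with JNJ. It was 1980 to 2126 CPM with BRD+LoAA, against 1889 to 1926 CPM with AA. SOX2 and POU5F1 therefore do not stand for the whole list. Of 20 genes lowered by p53 through DREAM, 14, 14 and 12 were lower with BRD, JNJ and BRD+LoAA and 2 higher in each, with AURKA, a mitotic kinase, at -1.19, -1.18 and -0.89. Of 24 p53 regulators, ATM was higher in each comparison (1.21, 1.11 and 1.07) and HIPK2, a kinase that phosphorylates p53, lower (-0.65, -0.71 and -0.80). Of 35 other p53 targets, 4, 3 and 5 were higher and 5, 4 and 4 lower, among them KITLG (3.19, 2.97 and 3.46) and PRDM1 (-0.98, -0.97 and -1.20). In bulk samples fewer cells of a type and less RNA per cell cannot be told apart, and what part cell identity plays in the changes of PMAIP1, BTG2 and DDB2 was not tested.

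The same genes can be followed over time in other groups, with the limit that these comparisons span library series. In CHIR cells 10 of the 31 were higher and 7 lower at 24 h than at 6 h (17.9% and 19.5% of all genes), and in AA+CHIR cells 7 were higher and 9 lower (20.1% and 21.7%). PMAIP1 had 109 and 102 CPM in CHIR cells at 24 h against 208 and 233 CPM at 6 h (-1.06 on the log2 scale) and 115 and 90.7 CPM in AA+CHIR cells at 24 h against 295 and 237 CPM at 6 h (-1.37). This is opposite in sign to its change under BRD alone. AEN had 77.1 and 71.7 CPM in CHIR cells at 24 h against 156 and 149 CPM at 6 h, and 59.3 and 82.3 CPM in AA+CHIR cells at 24 h against 155 and 132 CPM at 6 h. PLK2 had 9.78 and 16.1 CPM in CHIR cells at 24 h against 33.5 and 38.003 CPM at 6 h, and 24.0 and 29.5 CPM in AA+CHIR cells at 24 h against 70.1 and 64.7 CPM at 6 h. Both genes were called lower at 24 h in both groups. RRM2B had 181 and 163 CPM in CHIR cells at 24 h against 85.5 and 90.6 CPM at 6 h, and 109.5 and 141 CPM in AA+CHIR cells at 24 h against 74.2 and 70.0 CPM at 6 h. BTG2 had 26.0 and 22.8 CPM in CHIR cells at 24 h against 6.94 and 11.5 CPM at 6 h, and 23.4 and 15.9 CPM in AA+CHIR cells at 24 h against 6.33 and 9.33 CPM at 6 h. BAX, which opens the mitochondrial outer membrane, had 36.7 and 36.9 CPM in CHIR cells at 24 h against 16.3 and 18.0 CPM at 6 h, and 47.3 and 48.9 CPM in AA+CHIR cells at 24 h against 17.1 and 16.1 CPM at 6 h. These 3 were called higher at 24 h in both groups.

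FBXO22 had 86.5 and 89.2 CPM in CHIR cells at 24 h against 46.9 and 50.5 CPM at 6 h, and 86.0 and 90.5 CPM in AA+CHIR cells at 24 h against 51.6 and 45.5 CPM at 6 h. SPATA18, which acts in mitochondrial quality control, had 8.15 and 7.75 CPM in CHIR cells at 24 h against 1.82 and 1.39 CPM at 6 h, and 6.06 and 7.55 CPM in AA+CHIR cells at 24 h against 1.33 and 0.831 CPM at 6 h. Both were called higher in both groups. The remaining genes among the 12 with the smallest p-values were among the 12 in 1 of the groups. In CHIR cells ZMAT3 had 78.0 and 75.9 CPM at 24 h against 35.7 and 32.9 CPM at 6 h, TP53INP1 had 17.8 and 28.0 CPM at 24 h against 11.1 and 8.09 CPM at 6 h, and DDB2 had 42.9 and 51.9 CPM at 24 h against 22.7 and 23.5 CPM at 6 h. These were higher, whereas EDA2R, a receptor of the tumour necrosis factor family, was lower, with 4.14 and 3.66 CPM at 24 h against 13.5 and 12.3 CPM at 6 h. In AA+CHIR cells TRIAP1 had 20.9 and 17.8 CPM at 24 h against 70.9 and 45.3 CPM at 6 h, MDM2 had 184 and 211 CPM at 24 h against 293 and 284 CPM at 6 h, and PHLDA3 had 14.2 and 16.5 CPM at 24 h against 28.0 and 26.6 CPM at 6 h. These were lower, whereas FDXR was higher, with 24.0 and 28.6 CPM at 24 h against 9.60 and 12.4 CPM at 6 h. Adjusted p-values ran from 8.25e-07 to 0.00395 in CHIR cells and from 1.44e-07 to 0.00589 in AA+CHIR cells (edgeR). CDKN1A was not called in either group (log2 changes 0.15 and 0.02). MDM4 was called higher in CHIR cells (0.57) and not called in AA+CHIR cells (0.09), and the difference was not tested. The count in CHIR cells was 11 instead of 17 without the second 6 h library.

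Sorted cells at 72 h had lower levels of many p53 targets than unsorted cells at 24 h, where series, sort and time cannot be told apart. With AA, 4 of the 31 were higher and 17 lower at 72 h (21.5% and 23.4% of all genes), and with BRD 2 were higher and 15 lower (21.2% and 23.1%). CDKN1A had 2.02 and 1.70 CPM in AA cells at 72 h against 19.7 and 18.0 CPM in AA+CHIR cells at 24 h (-3.32 on the log2 scale), and 3.17 and 2.92 CPM in BRD cells at 72 h against 20.9 and 21.1 CPM in BRD+CHIR cells at 24 h (-2.79). CCNG1 went the other way, with 608 and 640.3 CPM in AA cells at 72 h against 241 and 258 CPM at 24 h, and 588 and 601 CPM in BRD cells at 72 h against 290.1 and 283 CPM at 24 h. RRM2B had 42.2 and 39.8 CPM in AA cells at 72 h against 109.5 and 141 CPM at 24 h, and 47.2 and 51.4 CPM in BRD cells at 72 h against 158 and 163 CPM at 24 h. FDXR had 6.86 and 3.41 CPM in AA cells at 72 h against 24.0 and 28.6 CPM at 24 h, and 5.86 and 4.87 CPM in BRD cells at 72 h against 26.1 and 32.2 CPM at 24 h. Both were lower at 72 h with each agent and did not overlap. BAX had 18.4 and 10.9 CPM in AA cells at 72 h against 47.3 and 48.9 CPM at 24 h, and 11.2 and 9.98 CPM in BRD cells at 72 h against 40.7 and 42.9 CPM at 24 h. DDB2 had 9.15 and 7.46 CPM in AA cells at 72 h against 35.1 and 22.1 CPM at 24 h, and 15.4 and 19.0 CPM in BRD cells at 72 h against 39.5 and 46.3 CPM at 24 h. These were lower too.

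TRIM22 had 17.8 and 14.7 CPM in AA cells at 72 h against 61.6 and 49.2 CPM at 24 h, and 23.7 and 18.9 CPM in BRD cells at 72 h against 57.0 and 52.3 CPM at 24 h. SESN1 had 18.3 and 13.8 CPM in AA cells at 72 h against 37.2 and 32.9 CPM at 24 h, and 13.8 and 15.5 CPM in BRD cells at 72 h against 55.1 and 40.8 CPM at 24 h. XPC had 28.9 and 34.1 CPM in AA cells at 72 h against 72.8 and 57.6 CPM at 24 h, and 39.1 and 33.4 CPM in BRD cells at 72 h against 66.2 and 62.1 CPM at 24 h. All of these were lower at 72 h. In AA cells BTG2 was higher, with 58.5 and 54.3 CPM at 72 h against 23.4 and 15.9 CPM at 24 h, and so was TP53INP1, with 51.2 and 53.3 CPM at 72 h against 20.2 and 26.2 CPM at 24 h. TNFRSF10B was lower with both agents, with 51.0 and 57.1 CPM in AA cells at 72 h against 80.8 and 87.5 CPM at 24 h. PHLDA3, TRIAP1 and PLK3 were also among the 15 lower in BRD cells, PHLDA3 being lower in AA cells too. In BRD cells PHLDA3 had 11.2 and 9.13 CPM at 72 h against 25.8 and 22.8 CPM at 24 h, TRIAP1 had 15.7 and 14.2 CPM at 72 h against 28.6 and 30.9 CPM at 24 h, and PLK3 had 1.90 and 0.731 CPM at 72 h against 6.64 and 8.25 CPM at 24 h. PMAIP1 was among the 2 called higher in BRD cells (0.59) and was not called in AA cells. Adjusted p-values of the 12 genes whose levels are given for each agent ran from 9.98e-11 to 0.000454 with AA and from 6.45e-11 to 0.0014 with BRD (edgeR). MDM2 and MDM4 were not called in either. RPL11 changed by -2.62 between AA at 72 h and AA+CHIR at 24 h.

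In single cells the mesoderm library stood out for CDKN1A and its fellow targets. After filters 4511 endoderm cells, 5632 mesoderm cells and 4193 cells of the 36 h library were kept, with medians of 7680, 7874 and 21150 unique molecular identifiers (UMIs) per cell. The libraries shared 50 to 56 cell barcodes by pair. Each condition is 1 library, so there is no test, and intervals cover counting error only. Summed over cells, CDKN1A had 54.1 CPM in mesoderm cells against 3.74 CPM in 36 h cells, a 14.5-fold difference, and 4.38 CPM in endoderm cells. MDM2 had 45.1 CPM in mesoderm cells and 26.9 CPM in endoderm cells, against 12.9 CPM in 36 h cells. MDM4 had 49.0 CPM in mesoderm cells and 63.5 CPM in endoderm cells, against 22.6 CPM in 36 h cells.

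Between mesoderm and 36 h cells, 22 of the 31 genes had 5 CPM or more in the higher library. Of these 22, 9 were at least 2-fold higher in mesoderm cells and none was 2-fold lower. Among all 9494 genes at that floor, 12.4% were higher and 6.09% lower. BTG2 had 29.3 CPM in mesoderm cells against 2.89 CPM in 36 h cells. PHLDA3, ZMAT3, XPC, SESN1, TNFRSF10B and TP53INP1 were 2.51, 3.13, 2.62, 2.14, 2.06 and 4.35 times as high in mesoderm cells. In endoderm cells 4 genes were at least 2-fold higher and 5 lower than at 36 h, of 19 members at that floor. Among all 9897 genes at that floor, 20% were higher and 13.6% lower. BTG2 had 37.1 CPM in endoderm cells against 2.89 CPM in 36 h cells, BBC3 had 17.3 CPM in endoderm cells against 3.35 CPM in 36 h cells, and TP53INP1 had 7.61 CPM in endoderm cells against 1.19 CPM in 36 h cells. The genes that were lower in endoderm cells included TRIAP1, with 38.8 CPM against 126 CPM in 36 h cells, FDXR, with 15.8 CPM in endoderm against 46.4 CPM in 36 h cells, and TIGAR, with 6.96 CPM in endoderm against 22.2 CPM in 36 h cells. TP53I3, a quinone oxidoreductase, and DDB2 were at 0.468 and 0.477 times the 36 h level in endoderm cells.

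Set directly against mesoderm cells, endoderm cells had 1 of the 31 genes at least 2-fold higher and 12 lower. Of the 31, 22 had at least 5 CPM in the higher library. Among all 10164 genes at that floor, 11.3% were higher and 9.79% lower. BBC3, a pro-apoptotic BCL2-family gene, was the higher one, with 17.3 CPM in endoderm cells against 6.08 CPM in mesoderm cells. CDKN1A was at 0.0809 times its mesoderm level in endoderm cells (95% interval 0.0681 to 0.0956), ZMAT3 at 0.223, DDB2 at 0.316 and PHLDA3 at 0.385. PLK2, TP53I3, TRIAP1, XPC, RRM2B, SESN1, TIGAR and FDXR made up the rest, at 0.483, 0.477, 0.414, 0.473, 0.444, 0.498, 0.414 and 0.403 times the mesoderm level. The 5 genes with most counts included BAX, CCNG1, PMAIP1 and TRIAP1 in all 3 libraries, joined by FBXO22 in the endoderm and 36 h libraries and by XPC in the mesoderm library. PMAIP1 had 107 CPM in endoderm cells and 103 CPM in mesoderm cells, against 134 CPM in 36 h cells. The endoderm value includes a cluster, described below, with far more PMAIP1 than the rest, and every other endoderm cluster lay below 103 CPM. The mesoderm library was made in another medium, and medium and lineage cannot be told apart.

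**Figure D4:**
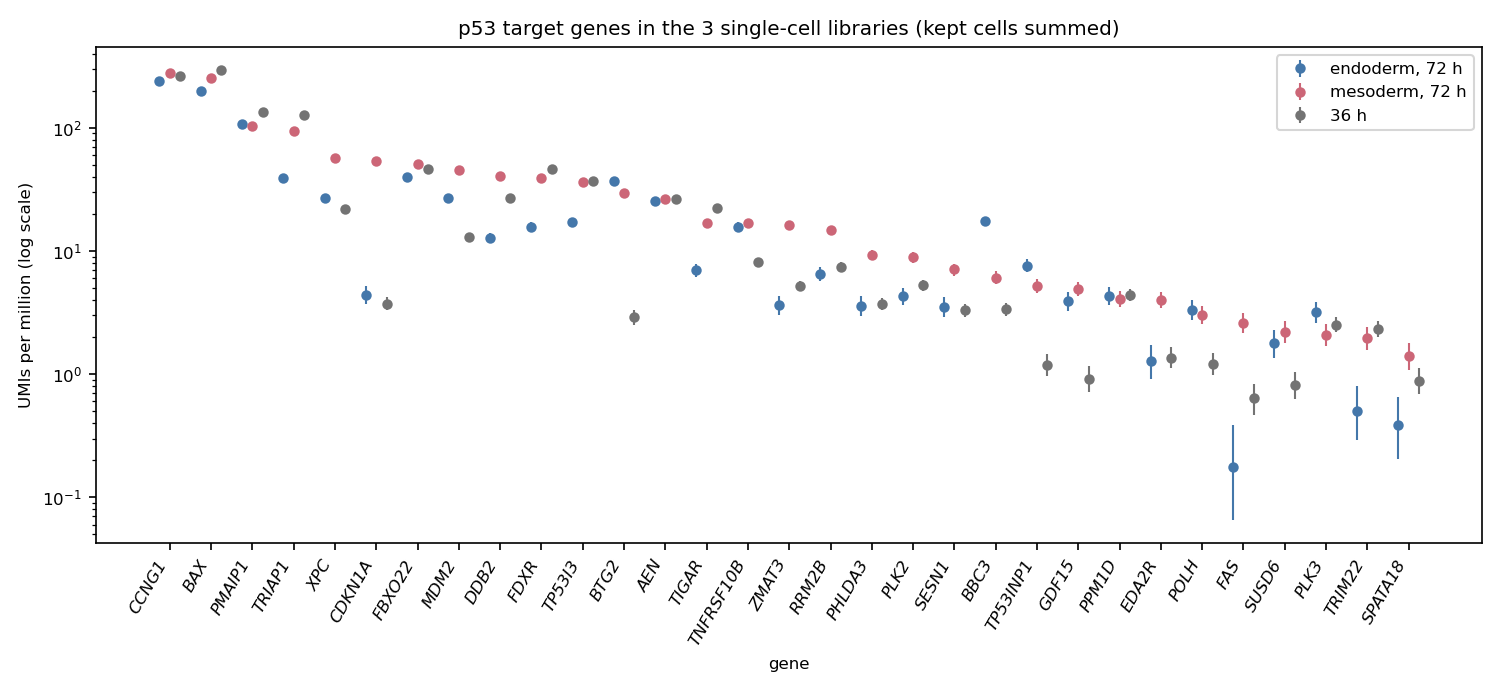
CPM of UMIs (log scale) summed over kept cells of the 31 genes in the 3 single-cell libraries, with exact Poisson 95% intervals for counting error, 1 library per condition. CDKN1A lies at 54.1 CPM in mesoderm cells and below 5 CPM in the other libraries, and BTG2 lies near 3 CPM at 36 h and above 29 CPM in both 72 h libraries.

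Clusters were made without the 31 genes and are given by number and leading genes. CDKN1A was high throughout the mesoderm library, between 31.5 CPM in cluster 2 (led by SSTR2, IFT57 and CXCR4) and 75.0 CPM in cluster 0 (led by AC106864.1, NEFM and HIST1H1D, with CDKN1A itself next among its leading genes although it was left out of the clustering). It was between 2.62 and 4.65 CPM in the 36 h clusters. Other targets did not all follow its order over the clusters. MDM2 had 47.1 CPM in cluster 0, 29.1 CPM in cluster 2 and 63.6 CPM in cluster 3, where CDKN1A had 57.6 CPM. BTG2 had 32.3 CPM in cluster 0 and 34.2 CPM in cluster 2. Cluster 1 of that library, led by the mitotic genes AURKA, UBE2C and DEPDC1, had 43.3 CPM of CDKN1A. Summed primitive streak markers were 454 to 730 CPM in mesoderm clusters and 143 to 606 CPM in endoderm clusters, against 159 to 1047 CPM in 36 h clusters. Summed mesoderm markers were 141 to 404 CPM in mesoderm clusters, against 20.7 to 53.3 CPM in endoderm clusters and 26.8 to 124 CPM in 36 h clusters. SOX17, an endoderm transcription factor, had 0 UMIs in every mesoderm and 36 h cluster.

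The endoderm library held a cluster that stood apart in PMAIP1. Cluster 4, with 590 cells (13.1% of the library) and led by CYR61, SOX2 and FOXD3-AS1, had 482.9 CPM of PMAIP1 (95% interval 458.1 to 508.6), against 49.5 to 98.8 CPM in the other 6 endoderm clusters. It also had the most CDKN1A of that library, 18.0 CPM against 0 to 7.87 CPM in the others. Its BTG2 and BBC3 levels, 26.8 and 18.0 CPM, lay within the range of the others. This cluster had 830.5 CPM of POU5F1 and 7.46 CPM of SOX17, where the other endoderm clusters had 147 to 380 CPM of POU5F1 and 42.8 to 149.5 CPM of SOX17. Its cells held a median of 2807 UMIs, less than the 7680 of the library, as did clusters 1 and 6 with 2129 and 1400 UMIs, which had 98.8 and 64.7 CPM of PMAIP1. It is left unnamed, and no doublet caller was run.

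**Figure D5:**
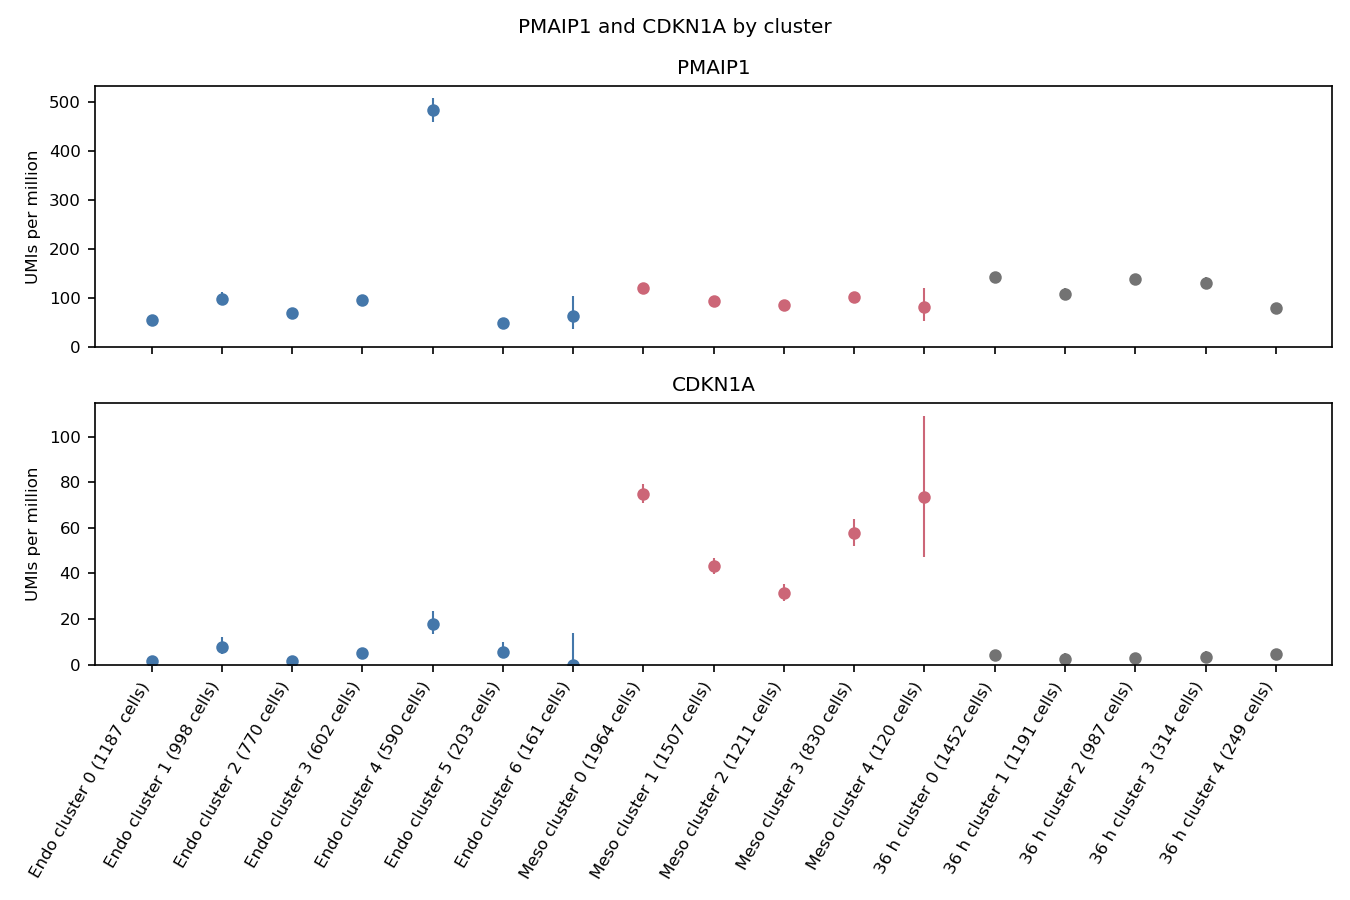
CPM of UMIs of PMAIP1 and of CDKN1A by cluster in the 3 single-cell libraries, with exact Poisson 95% intervals for counting error. PMAIP1 reaches 482.9 CPM in endoderm cluster 4, and CDKN1A lies between 31.5 and 75.0 CPM in the mesoderm clusters.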

How the data were processed

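Bulk values were expected counts per gene, deposited by the authors, and were rounded to whole numbers here. Single-cell values were deposited by the authors as UMI counts per gene and barcode. The submitters' processing notes name Salmon 1.4.0, edgeR 3.34.0, limma 3.48.1, Seurat 4.0.2, Cell Ranger and GRCh38, without their roles. The bulk kit keeps strand, per the labels' protocols.

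Bulk counts were tested with edgeR 4.0.16 (quasi-likelihood, TMM, filterByExpr, false discovery rate 0.05), in 1 fit per time and, for comparisons between times, 1 fit over 30 libraries. Alternatives used DESeq2 1.42.0, limma-voom (limma 3.58.1), RLE scaling, no filter, a replicate block and the omission of each library. Residual degrees of freedom were 6 at 6 h, 5 at 24 h and 4 at 72 h. The fits were tested on simulated data, and 61% of 2-fold and 100% of 4-fold changes were recovered at 72 h. Changes were planted in genes averaging above 5 CPM, with the same spread for every gene. Recovery of lower genes, such as CDKN1A at 72 h, was therefore not tested. False calls made up 3.39% to 7.41% of the calls in the simulated comparisons, with 6.97% for CHIR against untreated cells at 6 h. Same-numbered libraries did not deviate together (correlations of -0.0807 to 0.101), so the numbers were not taken as pairs.

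Barcodes needed 500 detected genes and a mitochondrial share of UMIs no higher than 10%. Cells were clustered with scanpy 1.11.5 (2000 variable genes, 30 components, 15 neighbours, Leiden resolution 0.5, the 31 genes left out), and summed as CPM. Folds needed 5 CPM and 2-fold. Intervals of single-cell levels are exact Poisson at 95%, and those of single-cell folds are exact binomial at 95%. Intervals cover counting error only. Promoters came from a RefSeq table.

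The genes and lists were chosen with earlier results of these data known. Named genes were the 12 called members with the smallest p per comparison, MDM4, CDKN1A and MDM2 throughout, up to 4 called genes per other list, and in single cells members past 2-fold or among the 5 highest. One further gene that this rule names is not reported here.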

Additional observations from a re-analysis of the deposited data

Results flagged for a closer look

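PMAIP1, BBC3, EDA2R and PHLDA3 moved in opposite directions between 24 h and 6 h under BRD alone and under CHIR or AA+CHIR, with both libraries of each group on its side. PMAIP1 changed by 1.70 on the log2 scale under BRD alone, against -1.06 in CHIR cells and -1.37 in AA+CHIR cells. BBC3 changed by 1.72 under BRD alone, against -1.11 in CHIR cells and -1.09 in AA+CHIR cells. EDA2R changed by 1.39 under BRD alone, against -1.73 in CHIR cells and -1.14 in AA+CHIR cells. PHLDA3 changed by 2.44 under BRD alone, against -0.83 in AA+CHIR cells. All of these were called by edgeR, but leaving out 1 library lost the calls of EDA2R under BRD alone and of EDA2R and BBC3 in AA+CHIR cells in 4 of 4 fits each, of BBC3 under BRD alone and in CHIR cells in 2 of 4 each, and of PHLDA3 in AA+CHIR cells in 1 of 4. The difference between the groups was not tested. BRD alone stays within library series 46, whereas the CHIR and AA+CHIR comparisons span series 38 and 33, so for these series and time cannot be told apart.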

How the results depend on the processing

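No direction reversed among the counts and named genes under any alternative run. Of the 31 genes, CHIR against untreated cells called 5 by DESeq2 instead of 3. One fit over all libraries called 3 instead of 9 for all CHIR-holding libraries, 0 instead of 1 for AA+CHIR against CHIR at 6 h and 4 instead of 0 at 24 h, where DESeq2 and limma-voom each called 1. Mesoderm against 36 h cells had 14 genes past 2-fold with a floor of 1 CPM instead of 9 with a floor of 5 CPM. Of 152 single-gene calls, 4 were lost by DESeq2, 14 by limma-voom, 2 by RLE scaling and 0 without the filter. Of 62 of these calls also fitted over all libraries at once 12 were lost, and of 662 fits without 1 library 135 lost the call. With the replicate number as a block 5 of 152 were lost, including BTG2 with CHIR at 6 h, and BRD alone at 24 h against 6 h called 18. The block moved no count by over 1.5 times.
Leaving out each library in turn gave 0 to 3 calls for CHIR against untreated cells, 0 to 10 for all CHIR-holding libraries, 0 to 2 for AA+CHIR against CHIR at 6 h and 0 to 1 at 24 h, and 20 to 22 for BRD alone against untreated cells. It gave 0 to 0 for BRD+CHIR, for JNJ+CHIR and for BRD against JNJ at each time. BRD+CHIR against BRD alone gave 9 to 9. At 72 h, BRD, JNJ and BRD+LoAA against AA gave 2 to 4, 2 to 4 and 3 to 4. Between times, CHIR gave 11 to 17, AA+CHIR 12 to 13, BRD alone 12 to 15, AA at 72 h 19 to 22 and BRD at 72 h 16 to 18. Where an omission left 1 library in a group, that library is assumed to vary like the other groups. CDKN1A, FAS, GDF15, SPATA18 and PLK3 each had a library with 6 counts or fewer, which limits their changes.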
